A study of Mus musculus with 3 samples.

Results

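The cells described here are the 2 ends of a p53 scale in mouse embryonic stem cells exposed to tubercidin for 6 h. Each cell of that library was ranked by the share of its UMIs (unique molecular identifiers, one per captured mRNA molecule) that came from Mdm2, Phlda3, Ccng1, Cdkn1a, Trp53inp1 and Zmat3, 6 established p53 target genes. The top quartile holds 732 cells and the bottom quartile 732, called p53-high and p53-low here. Together they are 1464 of the 2926 cells of the 6 h library and of the 7322 cells of all 3 libraries. The values of the 6 ranking genes therefore define the cells and are given as a description. The names p53-high and p53-low stand for this RNA share, since no protein was measured.

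The study profiled E14 cells, a stem cell line of 129/Ola background, grown with serum and LIF (leukemia inhibitory factor, which keeps the cells undifferentiated). Tubercidin, an adenosine analog, was given at 10 uM for 3 h or 6 h, and the control is a 6 h culture with the solvent DMSO. Single cells were captured with 10x Genomics 3′ chemistry as 1 library per condition, so the libraries are single cultures and no difference between them or within them has a replicate check. All intervals given are 95% intervals that cover counting error alone, and no p-value was computed. The control quartiles (508 cells each of 2031) and the 3 h quartiles (592 each of 2365) were made by the same ranking and are the reference.

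p53 is a transcription factor that is held at a low level by the ubiquitin ligase Mdm2, itself a p53 target, in a negative feedback loop with Mdm4 as partner. When nucleolar stress, DNA damage or a block of transcription frees p53 from Mdm2, it binds response elements near its target genes, whose products halt the cell cycle (Cdkn1a), repair DNA (Xpc, Polk), promote apoptosis (Bbc3, Perp, Apaf1) or feed back on p53 (Mdm2, Ccng1, Ppm1d). Embryonic stem cells are known to carry much p53, to pass through G1 quickly and to express little Cdkn1a. Single-cell counts show whether the targets move together from cell to cell.

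The p53 response element is a tandem of 2 decamers, and copies close to a start site are shown here as the sequence feature through which p53 is known to act. RefSeq windows of 250 bases before to 50 after a start (GRCm38.p6) were searched before the start on the gene strand for the element, with a spacer of 0 or 1 base, the central C and G of each decamer kept and up to 2 mismatches; the pattern is its own reverse complement, so both strands are covered. A match is a description and not a bound site, and no match says only that these letters are not in the window. Windows were found for 4 of the 6 ranking genes and 38 of the 45 other p53 targets listed for this work. Of 32851 windows of all genes, 181 held such a match (0.551%) and 29 held one with at most 1 mismatch (0.0883%). Among the ranking genes, Ccng1 and Cdkn1a held a match with 1 mismatch and Mdm2 and Phlda3 held none. Among the other targets, 5 of 55 windows held one with up to 2 mismatches (9.09%), in Rps27l, Bax, Ckap2, Trp73 and Zfp365. The stretches of 4 genes follow, each 5′ to 3′ on the gene strand with the match in capitals.
Ccng1, chr11:40755437-40755506, minus strand: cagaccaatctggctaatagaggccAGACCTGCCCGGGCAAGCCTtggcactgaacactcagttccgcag
Cdkn1a, chr17:29090903-29090972, plus strand: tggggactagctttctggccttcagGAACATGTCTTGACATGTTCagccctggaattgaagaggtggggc
Rps27l, chr9:66946271-66946340, plus strand: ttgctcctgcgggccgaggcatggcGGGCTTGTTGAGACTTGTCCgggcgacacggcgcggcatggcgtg
Ckap2, chr8:22185978-22186047, minus strand: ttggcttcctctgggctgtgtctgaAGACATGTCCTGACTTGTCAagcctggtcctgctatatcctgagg
The Ccng1, Cdkn1a and Ckap2 stretches lie upstream of every GENCODE M21 transcript of their gene, and the Rps27l stretch lies in an intron of 3 of its 6 transcripts. The Cdkn1a match ends 31 bases before the more upstream of its 2 RefSeq starts and the Ccng1 match ends 175 bases before its start.

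The share of UMIs in the 6 genes was spread without a gap between low and high cells. At 6 h its 25th percentile was 319 CPM (UMIs scaled to a total of 1000000), its median 537 CPM and its 75th percentile 829 CPM. In the control these were 144, 228 and 364 CPM, and at 3 h 150, 265 and 431 CPM. The lowest p53-high cell had 829 CPM and the highest cell below it 828 CPM, and the highest p53-low cell had 319 CPM against 320 CPM in the next cell. At 6 h, 297 cells lay within 10% of the upper limit and 198 within 10% of the lower, so both quartiles are ranges cut from a continuous measure. With a median of 4 UMIs in the ranking genes per 6 h cell, counting error could fill a gap. The lack of a gap therefore does not tell whether distinct cell states exist.

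**Figure D1:**
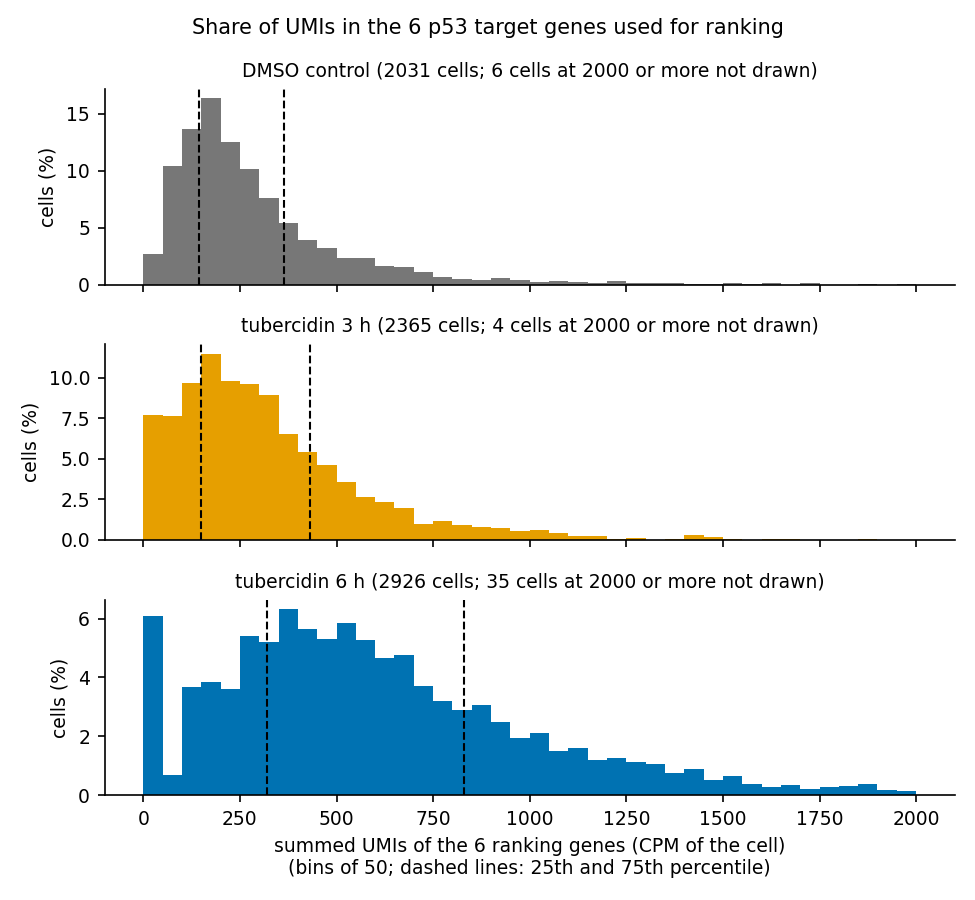
Histograms of the share of UMIs in the 6 ranking genes (x axis, CPM of the cell, bins of 50) against the percent of cells of each library, with dashed lines at the 25th and 75th percentiles. The 6 h distribution lies to the right of the others, with a median of 537 CPM against 228 CPM in the control, and has a column of cells at 0 and no gap at either dashed line.

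Few molecules decide the rank of a 6 h cell. A p53-high cell had a median of 9 UMIs in the 6 genes together (range 2 to 42), a p53-low cell a median of 1 (0 to 6), and 178 of the 2926 cells had none (6.08%). In the deeper control library the medians were 25 and 5 UMIs. After each cell was thinned to 4000 UMIs, which left out 284 of the 6 h cells, 108 of them p53-high and 91 p53-low, the variance of the summed count was 1.63 times its mean at 6 h, 1.88 times in the control and 1.37 times at 3 h, where counting alone gives 1. The spread thus exceeded counting error in each library, and was widest in the untreated cells relative to the mean. Barcodes far below the UMI limit (a median of 138 UMIs), which hold mostly free RNA, carried the 6 genes at 417 CPM at 6 h, between the p53-low cells (177 CPM) and the p53-high cells (1181 CPM). The libraries shared 1 cell barcode in each pair.

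By construction all 6 genes separated the quartiles. Mdm2, the ubiquitin ligase of p53, had 56.8, 150, 261 and 500 CPM in the 4 quartiles of 6 h cells from low to high. Ccng1, a cyclin that recruits a phosphatase to Mdm2, had 39.1, 92.3, 133 and 208 CPM. Phlda3, an Akt inhibitor, had 33.0 CPM in p53-low and 191 CPM in p53-high cells. Zmat3, an RNA-binding splicing regulator, had 28.6 and 137 CPM, and Trp53inp1, a p53 cofactor of stress responses, 13.7 and 99.9 CPM. Cdkn1a, the cyclin-dependent kinase inhibitor p21, had the fewest UMIs of the 6 at both ends, with 5.86 and 45.2 CPM. Compared across libraries, the p53-low cells at 6 h carried the 6 genes at 177 CPM, above the control p53-low cells (94.2 CPM) and below the mean control cell (291 CPM), while the p53-high cells at 6 h had 1181 CPM against 618 CPM in the control p53-high cells. These ends were chosen on the same values, and the 6 h cells hold far fewer UMIs, so counting error moves the ends of the libraries to unlike degrees. The part of depth in these levels was not tested. Trp53 itself, which encodes p53, showed no such gradient: it had 245, 226, 255 and 261 CPM at 6 h, and its ratio of p53-high over p53-low cells was 0.09 on the log2 scale (interval -0.02 to 0.20) at 6 h and -0.01 in the control.

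**Figure D2:**
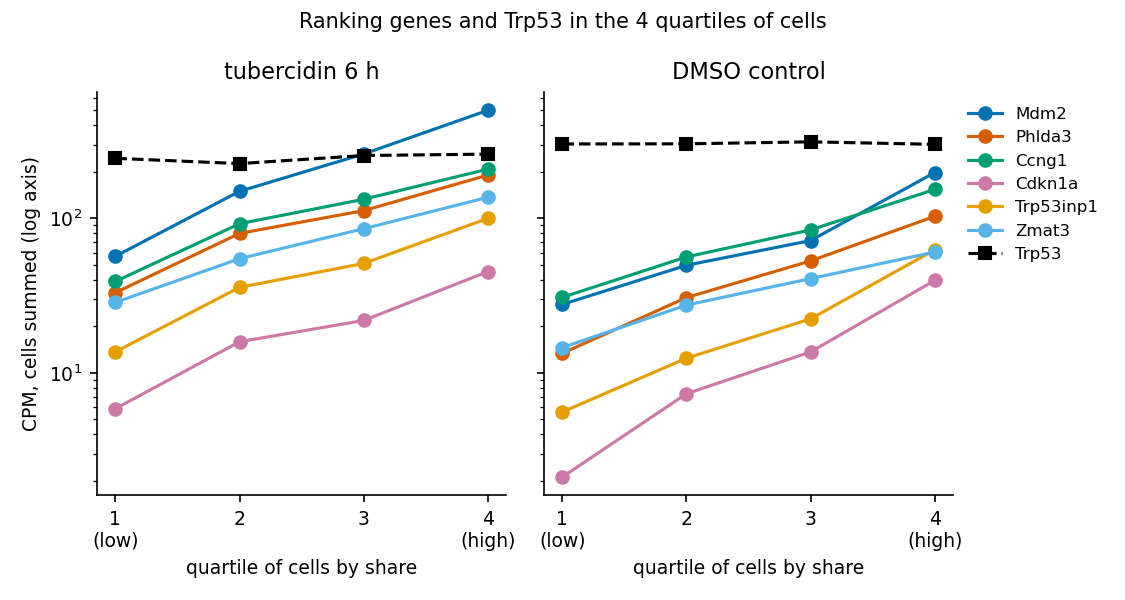
CPM (log axis) of the 6 ranking genes and Trp53 in the 4 quartiles of cells, summed over the cells of each quartile, at 6 h (left) and in the control (right). The ranking genes climb from quartile 1 to quartile 4, which the ranking fixes (Mdm2 from 56.8 to 500 CPM at 6 h), while Trp53 stays between 226 and 261 CPM at 6 h.

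The genes lie on separate chromosomes (GRCm38, GENCODE M21): Mdm2 at chr10:117688875-117710758, Phlda3 at chr1:135766119-135769136, Ccng1 at chr11:40748552-40755311, Cdkn1a at chr17:29090976-29100727, Trp53inp1 at chr4:11156431-11174379 and Zmat3 at chr3:32334792-32366014. All 6 are protein-coding genes. Each can be left out of the ranking in turn, which gives its level in cells chosen by the other 5 alone. At 6 h every left-out gene was higher in the top quartile. Mdm2 had 344 CPM in cells high for the other 5 genes and 173 CPM in cells low for them, a log2 ratio of 0.99 (0.88 to 1.10). Cdkn1a had 35.8 against 14.4 CPM, a log2 ratio of 1.31 (0.94 to 1.70) from 211 and 81 UMIs, and Trp53inp1 77.5 against 31.0 CPM, 1.32 (1.07 to 1.58). The log2 ratios of Ccng1, Zmat3 and Phlda3 were 0.87, 0.82 and 0.59. The 6 intervals lay above 0, and the median of the 6 ratios was 0.93.

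The control gave larger left-out ratios, with a median of 2.12 on the log2 scale. There Cdkn1a had 36.4 CPM in cells high for the other 5 genes and 3.59 CPM in cells low for them, a log2 ratio of 3.34 (3.03 to 3.67), and the smallest ratio was that of Zmat3, 1.38. Depth differs between these libraries, with a median of 48452 UMIs per control cell and 8005 per 6 h cell. With every cell thinned to 4000 UMIs and ranked again, the medians were 0.63 at 6 h, 0.94 in the control and 0.53 for the 3 h cells. Thinning also widened the groups, because many cells then tie at the same few UMIs and all tied cells were kept: the high and low groups held 775 to 1085 and 710 to 1276 of 2642 cells at 6 h, and 527 to 1117 and 810 to 1017 of 2031 in the control. The thinned medians thus differ from the others in both depth and group size, and the part of each was not tested. Thinned, Cdkn1a had the widest spread, with log2 ratios of 0.95 at 6 h, 2.64 in the control and -0.63 for the 3 h cells, the last with an interval of -1.56 to 0.26.

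**Figure D3:**
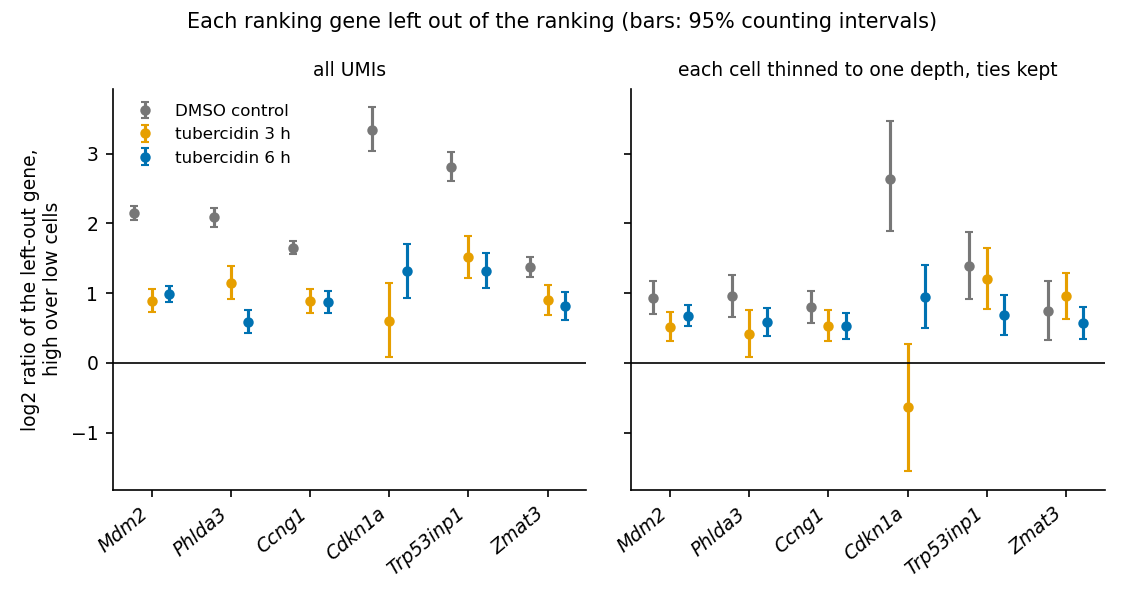
Log2 ratio (y axis) of each ranking gene between cells high and low for the other 5 genes, for the 3 libraries: quartiles with all UMIs (left), and with each cell thinned to 4000 UMIs larger groups that keep all tied cells (right); bars are 95% counting intervals. With all UMIs the control points lie above the 6 h points for all 6 genes (medians 2.12 and 0.93), and after thinning the medians are 0.94 and 0.63.

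Total UMIs per cell differed little between the quartiles, and total RNA was not measured. The p53-high cells at 6 h had a median of 7817 UMIs (interval 7450 to 8057) and the p53-low cells 7258 (7046 to 7470), a ratio of 1.08, while the cells between them had more than either end, 8440 (8271 to 8650). The ratio was 0.986 when the quartiles were drawn within deciles of the cells' share of UMIs in long genes, described further on, and 1.02 with a lower UMI minimum for cells. In the control the p53-high cells had fewer UMIs, 45345 against 49739, a ratio of 0.912, and at 3 h 10636 against 11656, again 0.912. Total UMIs are the denominator of the share, so this ratio is not independent of the ranking. At equal depth of 4000 UMIs, p53-high cells at 6 h showed a median of 1867 genes and p53-low cells 1737, 130 more, against a difference of 20.5 genes in the control and 41.5 at 3 h. The mitochondrial share was higher in p53-high cells of each library, with 3.22% against 2.67% of pooled UMIs at 6 h, and 33 of 732 p53-high cells (4.51%) had more than 10% against 4 of 732 p53-low cells (0.546%). At 3 h these were 75 of 592 and 16 of 592.

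Beyond the ranking genes, the difference between the quartiles was widespread at 6 h and lay almost wholly in one direction. Of 7852 genes whose mean over both ends reached 10 CPM, 1097 were at least 1.5-fold higher in p53-high cells (14.0%) and 33 at least 1.5-fold lower (0.420%), on the scale of log2 (CPM + 1). In the control, 215 of 8187 genes were higher (2.63%) and 11 lower (0.134%), and at 3 h 280 of 7515 were higher (3.73%) and 11 lower (0.146%). The median gene was 0.17 higher on the log2 scale in p53-high cells at 6 h, 0.09 at 3 h and 0.03 in the control, so a list at 6 h is read against 0.17. Scaling by the median of the gene ratios in place of total UMIs takes that shift out and gives 529 higher and 162 lower genes at 6 h. Thinning to 4000 UMIs gave 400 higher and 21 lower genes at 6 h, from 1046 and 1003 cells, and 226 higher and 75 lower in the control, from 602 and 792 cells, the groups again widened by ties.

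The 45 other p53 targets were higher as a group. All 45 are in the files, and 35 had a mean of at least 10 CPM at 6 h. Of the 35, 20 were at least 1.5-fold higher in p53-high cells and 0 lower, against 14.0% and 0.420% of all genes, with a median log2 ratio of 0.74 against 0.17. Summed, the 45 genes had 2471, 2687, 2963 and 3388 CPM in the 4 quartiles from low to high, a log2 ratio of 0.46 (0.42 to 0.49) between the ends. The control gave nearly the same sum ratio, 0.45, with 21 of 38 targets higher, 0 lower and a median of 0.66 against 0.03. The list was drawn up with earlier results of these data known, so its direction is not independent evidence. Of its genes, 10, among them Gdf15, Fas and Cd82, averaged below 10 CPM at 6 h and stand in no count.

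Within the list, Pvt1 and Perp were highest at 6 h among genes above 10 CPM. Pvt1, a long noncoding RNA beside Myc, had 302 CPM in p53-high and 106 CPM in p53-low cells at 6 h (log2 ratio 1.5, interval 1.37 to 1.64), and 189 and 75.5 CPM in the control. Perp, a desmosome protein linked to apoptosis, had 46.9 and 16.5 CPM at 6 h (1.45, and 0.56 after thinning) and 45.6 and 9.19 CPM in the control. Of the apoptosis genes, Apaf1, the apoptosome scaffold, had 96.5 and 39.8 CPM at 6 h (log2 ratio 1.26), and Bbc3, which encodes PUMA, 31.4 and 16.2 CPM (0.92). Bax, the pore-forming effector, did not differ, with 513 and 511 CPM (0.01), although its promoter window holds a match to the element.

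The repair genes were less uniform. Polk, a translesion polymerase, had 120 CPM in p53-high and 55.4 CPM in p53-low cells at 6 h (log2 ratio 1.11), and Xpc, which recognises damage in nucleotide excision repair, 28.9 and 15.5 CPM (0.86) at 6 h but 31.6 and 29.7 CPM (0.09) in the control. At the other end of the list, Rrm2b, a ribonucleotide reductase subunit, had 33.8 and 38.9 CPM at 6 h (-0.20), and Acer2, a ceramidase, 20.9 and 27.0 CPM (-0.35, but 0.24 after thinning). Plk2, a kinase of the stress response, had 38.9 and 16.3 CPM at 6 h (1.20) and a far wider gap in the control, 29.1 and 1.08 CPM (3.86). Rps27l, whose near-identical paralog Rps27 can share its reads, had 950 and 852 CPM at 6 h (0.16), and Ckap2, a mitotic spindle protein, 130 and 85.8 CPM (0.60).

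Regulators of p53 other than Mdm2 were mostly close to the median gene. Of 21 measured, 4 were at least 1.5-fold higher in p53-high cells at 6 h and 0 lower, near the 14.0% of all genes, with a median log2 ratio of 0.22. With quartiles drawn within deciles of the long-gene share 0 of 21 passed, where 156 of 7815 genes in all were higher. After thinning 1 of 21 passed, where 400 of 7757 genes were higher. With 21 genes these counts do not set the list apart from all genes. Mdm4, the Mdm2 partner that restrains p53, had 246 CPM in p53-high cells and 126 CPM in p53-low cells at 6 h (log2 ratio 0.95, interval 0.83 to 1.09), and 164 and 72.9 CPM in the control (1.16). Its 6 h ratio was 0.41 within long-gene deciles, below 1.5-fold, and 1.04 in the control. Ppp1r13b, a p53-binding cofactor of apoptosis, had 18.9 and 7.64 CPM at 6 h (1.20, and 0.41 within long-gene deciles) and 16.4 and 14.1 CPM in the control (0.20). Rpl5 and Rpl11, the ribosomal proteins that bind Mdm2 in nucleolar stress, were lower in p53-high cells at 6 h, by log2 ratios of -0.24 and -0.23 (-0.08 and 0.00 within long-gene deciles). The reported values are near the median of all 82 cytosolic ribosomal protein genes counted, -0.20.

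**Figure D4:**
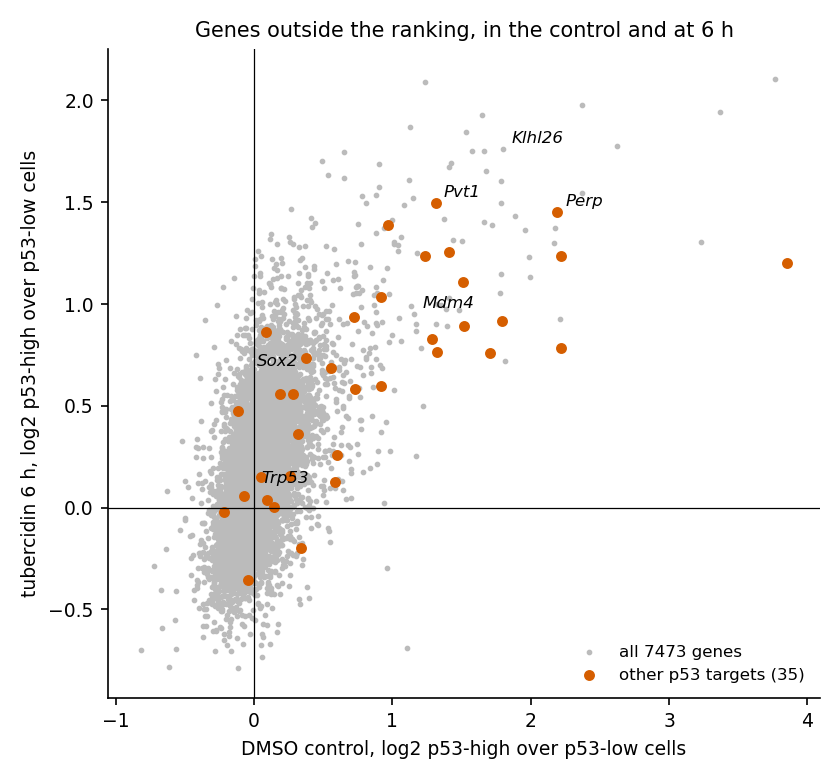
Log2 ratio of p53-high over p53-low cells in the control (x axis) and at 6 h (y axis) for the 7473 genes whose mean reached 10 CPM in both, ranking genes left out; orange points are the 35 other p53 targets among them. Most orange points lie in the upper right, with Pvt1 at 1.31 and 1.5 and Perp at 2.19 and 1.45, while Trp53 lies near 0 in both.

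Across the genes counted in both libraries, the 6 h and control ratios moved together, with Pearson's r of 0.60 and Spearman's rho of 0.59 over 7473 genes, given as a description since genes are not independent. Of these 7473 genes, 204 were higher in control p53-high cells and 991 at 6 h. Higher in both were 153, which is 75% of the 204 and 15.4% of the 991. For reference, 14.0% of all genes counted at 6 h were higher there, and 2.63% of all genes counted in the control. In opposite directions, 1 gene passed 1.5-fold. In all 3 libraries 99 of 7171 genes were higher, 14 of them in the list of other p53 targets. That list, drawn up with earlier results known, had 35 genes counted at 6 h, 38 in the control and 33 at 3 h.

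The 10 genes with the highest ratios at 6 h among those of at least 50 CPM were all at least 1.5-fold higher in the control p53-high cells too, and 9 of 10 at 3 h. Klhl26, a Kelch-family protein, led with 130 CPM in p53-high and 37.7 CPM in p53-low cells at 6 h, a log2 ratio of 1.76 (1.56 to 2.01), against 51.3 and 14.0 CPM in the control. Susd6, a sushi-domain membrane protein, had 214 and 66.6 CPM at 6 h (1.67). Rb1, the retinoblastoma protein that holds cells in G1, had 89.4 and 27.7 CPM at 6 h (1.65) and 45.0 and 13.4 CPM in the control (1.68). Its relative Rbl2 had 73.4 and 25.6 CPM at 6 h (1.49). Ptk7 (1.58), Arap2 (1.55), Rab23 (1.53), Wdr35 (1.5), Pvt1 (1.5), Man2b1 (1.49) and Lrrc28 (1.40) completed the 10. Rab23 and Wdr35 act at the primary cilium and in Hedgehog signalling, and Ptk7 is a Wnt co-receptor.

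The genes whose counts followed the summed ranking genes most closely over the 2642 thinned 6 h cells were Pvt1 (r = 0.26), Susd6 (0.26), Sntb2 (0.22), Klhl26 (0.21) and Rb1 (0.19), against a median of 0.01 over 3083 genes. The 15 pairs of ranking genes had r between -0.01 and 0.09. Their median was 0.06, against 0.11 in the 2031 thinned control cells, whose pairs ran from 0.03 to 0.19 although they held fewer UMIs in the ranking genes (a mean of 1.20 per cell against 2.41). All of these correlations are weak, and the cells of a set share 1 library.

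The 10 lowest genes at 6 h differed by less. Naa10, an N-terminal acetyltransferase, had 81.2 CPM in p53-high and 133 CPM in p53-low cells, a log2 ratio of -0.70 (-0.88 to -0.54). Gdf3, a TGF-beta family ligand of stem cells, had 96.9 and 148 CPM (-0.61), and Krt17, a keratin, 53.4 and 80.8 CPM (-0.59). Ccnd1, the G1 cyclin D1, had 60.2 and 89.9 CPM (-0.57) at 6 h and 50.5 and 53.6 CPM in the control (-0.09). Mthfd2, a mitochondrial folate enzyme induced by ATF4, had 87.2 and 128 CPM at 6 h (-0.55) and 157 and 234 CPM in the control (-0.57). Cnpy2, Tubb3, Vps28, Naxe and Tmem97 lay between -0.58 and -0.53. Of the 10, 3 passed 1.5-fold at 6 h and 1 in the control, and 9 had the same sign in the control. Within long-gene deciles the 10 ratios at 6 h lay between -0.45 and -0.16, so none passed 1.5-fold.

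Genes of long genomic span made up much of the 6 h difference. When the genes counted at 6 h were divided into quintiles by the length of the gene on the genome (median 5.01 kb in the shortest and 130 kb in the longest), the median log2 ratio of p53-high over p53-low cells climbed from -0.13 through 0.03, 0.18 and 0.31 to 0.44, and the share at least 1.5-fold higher from 3.31% to 31.3%, so that 492 of the 1097 higher genes were in the longest quintile. In the control the medians ran from -0.07 to 0.16 and at 3 h from -0.08 to 0.29. All genes with a span from the lower limit of the longest quintile (77.9 kb) upward, also those below 10 CPM, are called long genes here, ranking genes left out. They took 10.8% of all UMIs of p53-high cells at 6 h and 8.10% of those of p53-low cells, against 10.2% and 9.25% in the control. Of the 10 highest genes, the median span was 77.7 kb, and of the 10 lowest 5.08 kb.

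The other p53 targets were of middling span. The 35 other targets counted at 6 h had a median span of 17.7 kb, within the second quintile, and 31 of them lay above the median of their own quintile, by a median of 0.57. The quartiles were also drawn within deciles of the cells' share of long-gene UMIs, an alternative chosen after the data were seen. Of 7815 genes, 156 were then at least 1.5-fold higher and 43 lower at 6 h. In the control the same step left 159 higher and 14 lower. The median gene then stood at -0.01 at 6 h, the summed other targets kept a log2 ratio of 0.32, with 12 of 34 higher and 0 lower, and the left-out ranking genes a median of 0.63. The 10 highest genes all stayed past 1.5-fold in those quartiles at lower values, from 1.19 for Klhl26 and 1.03 for Rab23 and Man2b1 through 0.86 for Susd6 and 0.84 for Rb1 to 0.70 for Wdr35 and 0.69 for Pvt1. What makes long genes move with the share was not tested.

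Set beside all control cells, the 2 quartiles at 6 h differed both in the genes that stood higher and in those that stood lower. They share that control library, so the values are given side by side. In p53-low cells at 6 h, 129 of 7913 genes were at least 2-fold higher than in the control (1.63%) and 641 lower (8.10%), and in p53-high cells 333 of 8200 were higher (4.06%) and 313 lower (3.82%). The median gene stood at -0.24 in p53-low and -0.03 in p53-high cells on the log2 scale, a shift that bears on both counts. The longest quintile of genes had a median log2 ratio to the control of -0.33 in p53-low and 0.10 in p53-high cells, and the shortest quintile -0.02 and -0.12. Sox2, a core pluripotency factor, stood at -1.65 in p53-low and -0.99 in p53-high cells relative to the control, and the nuclear RNA Kcnq1ot1 at -2.20 and -1.12. Il12rb2 and Rab26os, genes with few UMIs in the control, stood at 3.13 and 3.27 in p53-low and 3.66 and 3.32 in p53-high cells, so they stood above the control at both ends of the p53 scale.

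**Figure D5:**
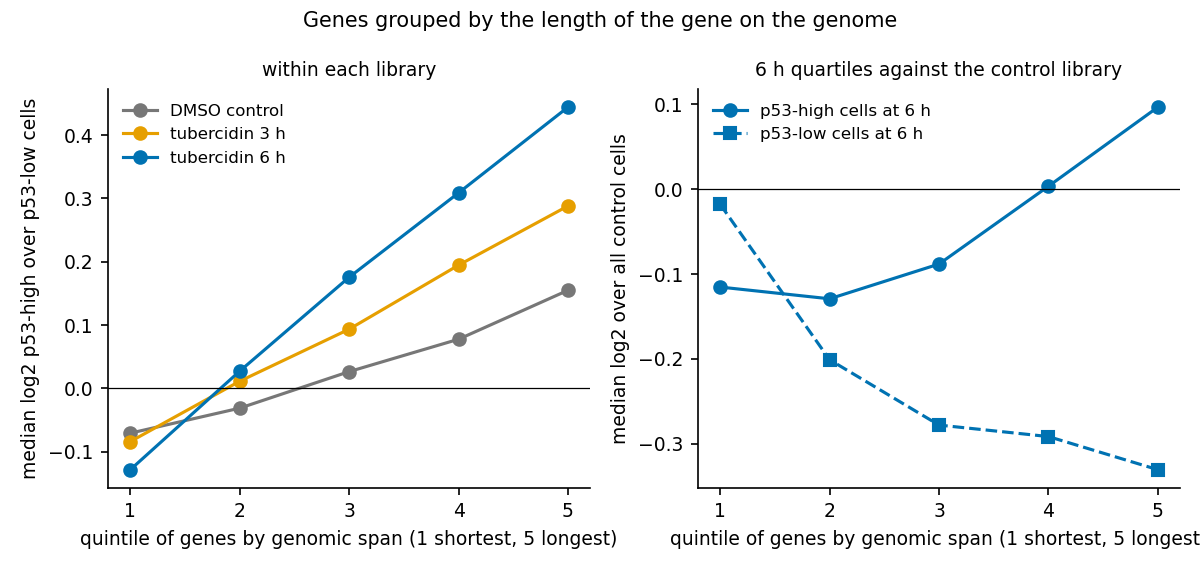
Median log2 ratio of genes by quintile of genomic span (x axis, 1 shortest to 5 longest): p53-high over p53-low cells within each library (left), and each 6 h quartile over all control cells (right). The within-library line is steepest at 6 h (from -0.13 to 0.44), and against the control the longest genes stand at -0.33 in p53-low and 0.10 in p53-high cells.

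Stem cell identity genes were present at both ends of the scale. Among core pluripotency factors, Pou5f1 (Oct4) had 205 CPM in p53-high and 215 CPM in p53-low cells at 6 h (log2 ratio -0.06, interval -0.18 to 0.05), and Nanog 46.1 and 55.4 CPM (-0.26, interval -0.51 to -0.03). Sox2 had 103 and 64.5 CPM at 6 h (0.67, interval 0.49 to 0.87), with 206 and 212 CPM in the control (-0.04) and a log2 ratio of -0.42 at 3 h. Of the 11 core factors, Sox2 alone passed 1.5-fold and the list's median was -0.11, below the 0.17 of all genes. The Sox2 ratio at 6 h was 0.37 within long-gene deciles and 0.32 after thinning, and 0 of 11 then passed. Of all genes, 156 of 7815 and 400 of 7757 were higher in these 2 settings. Naive factors had a median of 0.26 and a summed ratio of -0.16, of opposite sign; Dppa5a (-0.28) holds most of their UMIs. Markers of other cell types were low at both ends. Summed, the 10 primitive endoderm markers had 169 and 170 CPM, the 9 trophoblast markers 46.7 and 47.8 CPM and the 8 fibroblast markers 91.4 and 99.8 CPM. The 8 mesoderm and neural markers, mostly Tubb3, were lower in p53-high cells, with 84.0 and 125 CPM (-0.57, interval -0.74 to -0.40). No UMI of the 11 markers of 2-cell-like cells was seen in either quartile.

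The S phase and G2/M lists barely separated the quartiles. The 42 S phase genes had a summed log2 ratio of 0.00 at 6 h with 0 of 42 past 1.5-fold, and the 53 G2/M genes 0.05 with 4 higher, a smaller share than the 14.0% of all genes. Among the 4 were Gas2l3 (1.08) and Psrc1 (0.89), a p53-regulated microtubule protein that stood at 1.40 in the control. Within long-gene deciles 1 of 53 passed, against 156 of 7815 genes in all, and 0 after thinning, against 400 of 7757. The D and E type cyclins with CDK inhibitors had 2 of 12 higher and 0 lower at 6 h, near the 14.0% of all genes. Replication-dependent histones differed in direction between libraries. Their sum was higher in p53-high cells at 6 h (log2 ratio 0.44, interval 0.40 to 0.49) and at 3 h (0.25), and lower in control p53-high cells (-0.35, interval -0.36 to -0.33). Hist1h1b, a linker histone, had 494 CPM in p53-high and 293 CPM in p53-low cells at 6 h (0.75) and 857 and 1148 CPM in the control (-0.42). Histone genes are near-identical copies whose reads can be split between them, and 3′ capture of RNA without a poly(A) tail is partial.

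Several stress and growth lists had negative summed ratios in p53-high cells at 6 h, although of their genes only Nupr1 passed 1.5-fold lower. The 21 genes of the integrated stress response, which ATF4 drives, had a summed log2 ratio of -0.25 at 6 h, -0.22 at 3 h and -0.41 in the control. In the control Atf4 itself had 139 CPM in p53-high and 217 CPM in p53-low cells. At 6 h Nupr1 was the lowest of the list, with 32.0 and 52.6 CPM (-0.70). Glycolysis enzymes (-0.27), metallothioneins (-0.34), targets of the antioxidant factor NRF2 (-0.21) and heat shock chaperones (-0.11) had negative summed ratios at 6 h, and each was negative in the control, between -0.12 and -0.07. Cytosolic ribosomal proteins had a summed ratio of -0.19 at 6 h and 0.02 in the control, while in quartiles drawn within deciles of the long-gene share their ratio at 6 h was 0.01. In the same quartiles the integrated stress response had -0.16, glycolysis -0.11, metallothioneins -0.07, NRF2 targets -0.05 and heat shock chaperones -0.01. Other lists of this kind were not uniform. At 6 h DNA damage repair genes had a summed ratio of 0.16, immediate-early genes 0.29 and cholesterol synthesis 0.02 (interval -0.04 to 0.09). The unfolded protein response of the endoplasmic reticulum had -0.05 (interval -0.09 to -0.01). Within deciles of the long-gene share these came to -0.06, 0.12, -0.11 and -0.10, in the same order.

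Nuclear and mitochondrial RNAs moved with the share. The summed nuclear-retained noncoding RNAs had a log2 ratio of 0.41 at 6 h, with Malat1 at 2728 CPM in p53-high and 2088 CPM in p53-low cells, 0.43 at 3 h and 0.16 in the control. The 13 mitochondrially encoded genes had 0.27 at 6 h, 0.36 at 3 h and 0.17 in the control. Within deciles of the long-gene share the nuclear RNAs came to 0.06, the mitochondrial genes to 0.18 and the histones to 0.30 at 6 h. The part that depth, nuclear RNA and mitochondrial RNA have in the p53 share was not tested. The BCL2 family sets the threshold for apoptosis. Its list here leaves out Bbc3 and Bax, which were counted with the other p53 targets, and of these Bbc3 passed 1.5-fold (0.92). Of the genes in the list, 0 of 6 counted passed 1.5-fold at 6 h. Of all genes 14.0% were higher and 0.420% lower, so with 6 genes this count is near the share of all genes. Within the family Mcl1 had 163 and 149 CPM (0.13), and Bak1 37.9 and 46.9 CPM (-0.30).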

How the data were processed

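The deposited files hold UMI counts per gene and barcode, made by the authors with Cell Ranger 7.1.0 against mm10, per the submitters' processing notes; whether intronic reads were counted is not given in the sources used here. Barcodes with at least 0.1 of the 99th percentile of the top 3000 barcodes (11033, 2961 and 2107 UMIs in the control, 3 h and 6 h libraries), no fewer than 500 genes and a mitochondrial share of up to 20% were kept as cells; the last limit removed 0, 7 and 1. No doublet caller was run, and leaving out cells above 2 times the median UMIs was an alternative. Counts were summed over the cells of each quartile and scaled to CPM, and ratios are of CPM + 1; intervals for ratios are exact conditional binomial intervals of the counts without the pseudocount, and for medians order-statistic intervals. Thinning drew 4000 UMIs per cell without replacement. The quartiles at 6 h held 5884167 UMIs (p53-high) and 5630669 UMIs (p53-low). With 1 library per group no test was possible. The members and gene lists were chosen with earlier results of these data known. Genes named outside the lists are the 10 highest and 10 lowest ratios at 6 h with a mean of at least 50 CPM, the 5 highest correlations, and the 2 highest and 2 lowest of each list; Apaf1, Bbc3, Bax, Polk, Xpc, Plk2, Rps27l, Ckap2, Rbl2, Atf4, Mcl1, Hist1h1b, Gdf15, Fas and Cd82 were named after their values were seen. Tested on simulated counts for the 6 h comparison (7857 genes), 100% of 200 genes changed 3-fold were recovered and 0.131% of the unchanged genes passed 1.5-fold. These counts were drawn from the summed counts of both quartiles, with no cells, ranking or spread beyond counting error. The 0.131% is therefore not a rate of false calls for the quartile contrast. Python 3.11.15, numpy 2.4.6, scipy 1.17.1 and pandas 2.3.3 were used.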

Additional observations from a re-analysis of the deposited data

Results flagged for a closer look

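These results had opposite signs at 6 h and in the control for p53-high over p53-low cells, with counting intervals that exclude 0 and a size of at least 0.1 in both; with 1 library each, the difference between the libraries was not tested. The summed replication-dependent histones had log2 ratios of 0.44 at 6 h and -0.35 in the control, with Hist1h1c at 1.13 and -0.23 and Hist1h2ak at 1.20 and -0.29. Of cell cycle genes, Clspn, a checkpoint mediator, had -0.39 and 0.17, and Cdc20, an activator of the anaphase-promoting complex, -0.32 and 0.15. Of stress genes, the endoplasmic reticulum chaperones Hspa5 and Hyou1 went opposite ways, Hspa5 with -0.26 at 6 h and 0.14 in the control and Hyou1 with 0.49 and -0.22. Nfe2l2, which encodes NRF2, had 0.28 and -0.12, and the chaperone Hspa4 0.18 and -0.12. Socs3, a feedback inhibitor of LIF signalling, had 0.43 at 6 h and -0.30 in the control. The transcription factor Jund had -0.18 and 0.10, and Sparc, a matrix protein, -0.32 and 0.12. These ratios are of CPM without a pseudocount. The gene lists and the named genes were screened for such signs. Many named genes were chosen as the highest or lowest of their list at 6 h, a choice that can favour a differing sign. In quartiles drawn within deciles of the long-gene share several 6 h values shrank or lost their sign, with Hyou1 at 0.09, Socs3 at 0.03, Nfe2l2 at -0.02, Hspa4 at -0.03 and Jund at -0.09, and Socs3 stood at -0.01 after thinning. The 0.18 of Hspa4 is close to the median of all genes at 6 h, 0.17.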

How the results depend on the processing

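No paired analysis was possible because each condition is 1 library and the labels give no replicate numbers. At 6 h the count of genes past 1.5-fold, 1130, was 421 after thinning, 2432 with the top and bottom decile of cells, 740 with tertiles, 1704 with cells weighted equally, 647 ranked without Mdm2, 691 with median-of-ratios scaling, 231 at a mean of at least 50 CPM, 2927 at 1 CPM, 201 at 2-fold, 3097 at a lower fold and 199 within deciles of the long-gene share. The control count, 226, was 464 with deciles of cells, 33 at 50 CPM, 782 at 1 CPM, 75 at 2-fold and 835 at a lower fold. The log2 ratio of summed other targets at 6 h, 0.46, was 0.26 thinned, 0.63 with deciles, 0.39 with tertiles, 0.39 without Mdm2, 0.28 with median-of-ratios scaling, 0.52 as UMIs per cell and 0.32 within deciles of the long-gene share; in the control, 0.45, it was 0.28 thinned, 0.59 with deciles, 0.40 with tertiles, 0.42 with median-of-ratios scaling and 0.40 as UMIs per cell. The left-out median at 6 h, 0.93, was 0.63 thinned, 1.28 with deciles, 0.74 with tertiles, 0.79 with median-of-ratios scaling and 0.63 within long-gene deciles; in the control, 2.12, it was 0.94 thinned, 1.99 within depth deciles, 2.89 with deciles and 1.80 with tertiles. The UMI ratio at 6 h, 1.08, reversed to 0.986 within deciles of the long-gene share and was 1.14 within deciles of the mitochondrial share; the control ratio, 0.912, was 1.00 within depth deciles, as those are built to give. Thinned groups keep all cells tied at the limits and so are larger than quartiles. Both alternatives that use long-gene or mitochondrial deciles were chosen after seeing the data. Under no setting tried did the summed targets or left-out medians change sign. Apart from limits that change how many genes or cells are counted, the cause was not tested. Relative to the median gene at 6 h, which median-of-ratios scaling sets to 0, some lists turn from positive to negative medians. These are the BCL2 family, the S phase genes, the D and E type cyclins with CDK inhibitors, and the host genes of small nucleolar RNAs. Depth limits the 6 h ranking to a median of 4 UMIs in the ranking genes per cell.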
